A study of Mus musculus with 22 samples.

Results

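Collagen genes were followed in mouse liver RNA on 22 arrays, each with a pair of dyes. The members are the genes named Col, a number, a and a number, as found through the RefSeq accession of the probe. Of 36 such genes with a probe, 33 passed the filter on dim spots, as did 26191 genes in all. A gene passed if some comparison had it well above background, by the scanner software's flag, on each of its arrays, in either channel. The 33 members comprise 10 fibrillar genes, the 6 basement membrane genes Col4a1 to Col4a6, and 17 others. Col6a6 passed with 5 of 44 channels above background and Col9a1 with 6, whereas Col26a1 had 2 and failed. Col10a1 and Col19a1 had 0 of 44 and failed too. The mice were of the ICR strain and 8 weeks old, and each channel of an array held RNA pooled from 2 to 5 livers.

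Pools came from 10 groups, and 11 pairs of groups were each hybridised on 2 arrays of opposite dye. M-Sham and F-Sham were males and females with sham surgery and vehicle injection, per the design text, and the labels call them intact and untreated. M-Hypox and F-Hypox had lost the pituitary by surgery as adults. All growth hormone (GH) groups lacked the pituitary as well, and so did the controls they were compared with. M-Hypox+GH30 and F-Hypox+GH30 were killed 30 min after 1 GH injection, and M-Hypox+GH90 and F-Hypox+GH90 were killed after 90 min. M-Hypox+2GH and F-Hypox+2GH received 2 injections 4 h apart and were killed 30 min after the last.

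Collagens are the main proteins of the extracellular matrix, and their chains wind around each other into a rope-like helix. Fibrillar types I, III and V form the fibrils of portal tracts and of scars, and in liver they are made mostly by stellate cells and portal fibroblasts. Type IV collagen forms the sheet-like network of basement membranes, which in liver surrounds vessels and bile ducts and is sparse along the sinusoids. The remaining types decorate fibrils, anchor cells or span the cell membrane. The pituitary hormone GH acts on liver through STAT5, and its release pattern differs between the sexes, which sets many sex differences of liver expression.

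Promoter windows of 250 bases before to 50 bases after the annotated start are in the RefSeq table (GRCm38.p6) for 27 of the 33 members, 30 windows in all. The type IV chains encoded by Col4a1 and Col4a2 are built into the same molecule, and their genes start back to back, so both windows are shown. The windows are chr8:11312777-11313076 on the minus strand for Col4a1 and chr8:11312555-11312854 on the plus strand for Col4a2. They share 78 bases, written in capitals and read on opposite strands, and the annotated starts lie within 22 bases of each other.
Col4a1: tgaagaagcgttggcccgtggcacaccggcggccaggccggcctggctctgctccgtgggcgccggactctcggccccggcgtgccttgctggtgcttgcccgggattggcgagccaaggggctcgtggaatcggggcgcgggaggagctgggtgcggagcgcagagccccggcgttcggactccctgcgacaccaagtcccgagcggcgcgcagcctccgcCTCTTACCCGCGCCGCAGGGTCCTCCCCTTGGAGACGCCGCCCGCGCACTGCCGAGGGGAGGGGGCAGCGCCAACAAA
Col4a2: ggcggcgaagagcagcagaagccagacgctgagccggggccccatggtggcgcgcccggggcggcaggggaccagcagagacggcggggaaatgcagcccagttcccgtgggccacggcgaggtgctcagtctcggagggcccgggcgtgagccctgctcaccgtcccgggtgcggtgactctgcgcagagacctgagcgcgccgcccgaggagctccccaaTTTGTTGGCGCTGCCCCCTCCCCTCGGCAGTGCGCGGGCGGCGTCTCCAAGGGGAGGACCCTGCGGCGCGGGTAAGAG
A fibrillar gene, Col1a2, and a multiplexin, Col18a1, are shown because both were called below and both have a CCAAT match, a sequence that Col1a2 promoters are known for. The Col1a2 window is chr6:4505368-4505667 on the plus strand, and the Col18a1 window is chr10:77166481-77166780 on the minus strand. Capitals mark CCAAT on either strand.
Col1a2: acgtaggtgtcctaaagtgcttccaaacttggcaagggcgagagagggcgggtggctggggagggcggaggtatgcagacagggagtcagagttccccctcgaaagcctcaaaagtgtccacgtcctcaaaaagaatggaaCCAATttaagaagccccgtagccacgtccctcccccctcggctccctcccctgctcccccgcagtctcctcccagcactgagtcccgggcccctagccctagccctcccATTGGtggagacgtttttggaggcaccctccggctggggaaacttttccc
Col18a1: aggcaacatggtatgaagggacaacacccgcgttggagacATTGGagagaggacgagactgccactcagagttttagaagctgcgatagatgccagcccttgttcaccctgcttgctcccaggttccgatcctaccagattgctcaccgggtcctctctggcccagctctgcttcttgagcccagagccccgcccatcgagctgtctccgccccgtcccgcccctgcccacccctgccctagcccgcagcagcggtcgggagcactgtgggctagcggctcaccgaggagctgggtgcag
CCAAT on either strand was present in 12 of the 30 member windows (40%), against 37.4% of 32851 promoter windows of all genes. GGGCGG, searched on both strands, was in 21 of 30 (70%) against 35.7%, and TATAAA was in 4 (13.3%) against 13.6%. The letters TTCNNNGAA, which read the same on both strands and are the core of the STAT5 motif, were in 0 of 30 member windows and in 8.3% of all windows. These are matches of letters in short windows only.

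Each value below is a log2 ratio of the first named group over the second, given for replicate 1 and replicate 2, followed by the fitted ratio ± SE. The SE comes from a limma fit to all 22 arrays. A gene was called when its adjusted p (Benjamini-Hochberg over all genes tested) was under 0.05 and both arrays went the same way. In all, 17 of the 33 members were called in at least 1 of the 11 comparisons and 16 in none. No such count was made over all genes tested, of which 37.4% were called in M-Hypox over M-Sham alone. Called members appeared in 6 comparisons, with 35 calls in total. Counts from fits without an array or with another setting are given for members only, without the share over all genes tested.

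**Figure D1:**
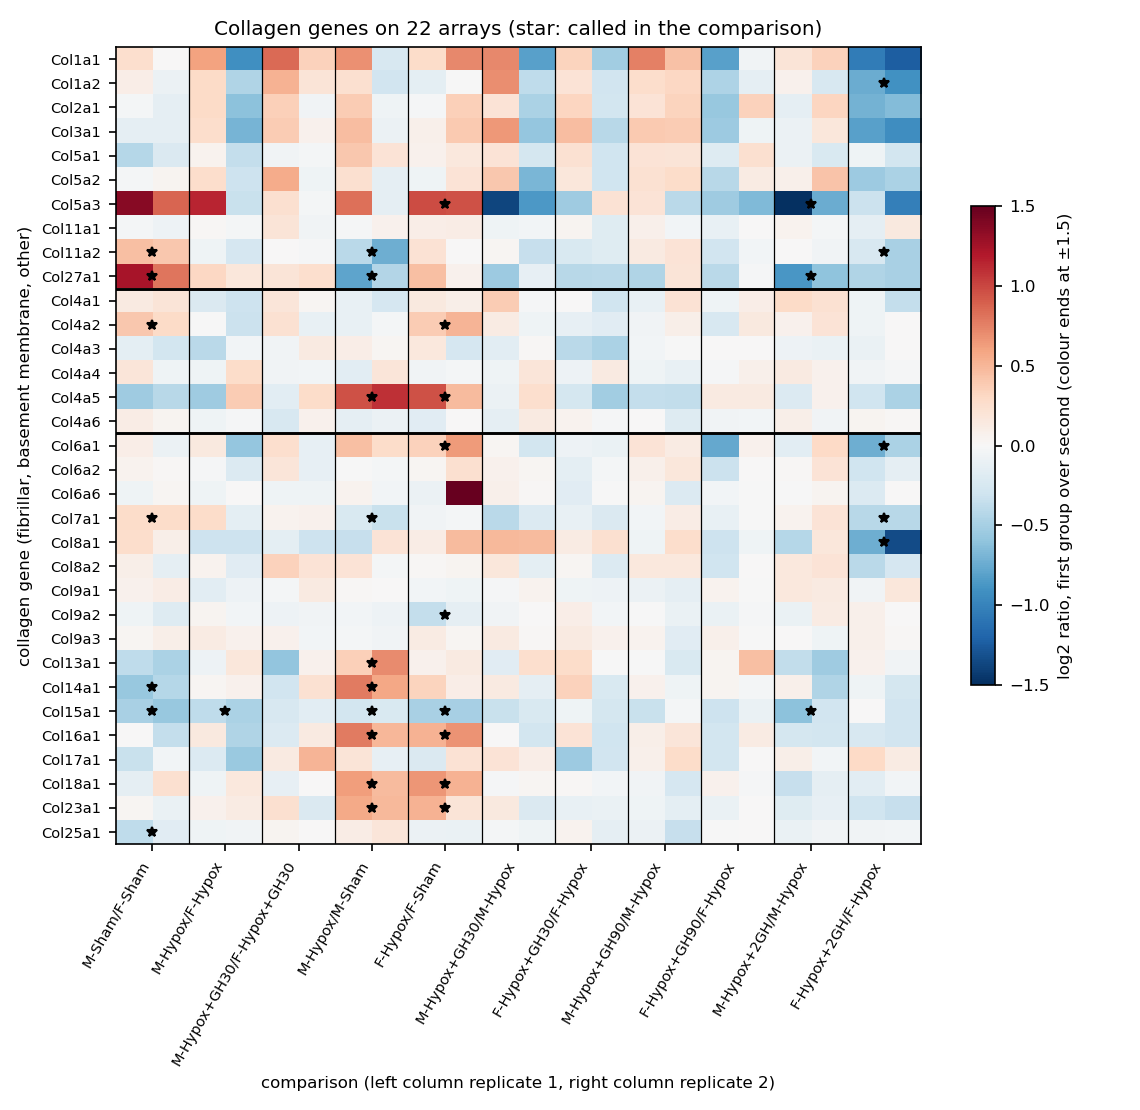
Log2 ratio of each of the 33 collagen genes (rows, ordered by class) on each of the 22 arrays (columns, paired by comparison), in colour from blue (lower in the first group) to red (higher), with a star where the gene was called. The stars gather in the columns of sham and Hypox mice and of the 2-injection groups, and the type I and III genes change colour between the arrays of several comparisons.

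Depending on the channel, 57.1% to 77.7% of spots stood well above background. The Y-linked genes Ddx3y and Eif2s3y followed the labelled sexes on 22 of 22 arrays, also where F-Hypox+2GH was compared with F-Hypox, for which the design text names M-Hypox. Of 10 hepatocyte markers, the 7 with a named probe (such as Alb and Ttr) were above background in all 44 channels. Skeletal muscle genes set libraries apart: the median of 17 muscle genes tested was between -0.05 and 0.07 on most arrays, but beyond 1 in size on 10 of 22 (1.32 to 2.94). Muscle RNA was thus high in the M-Sham pools and in a pool each of M-Hypox+GH30, M-Hypox+GH90 and M-Hypox+2GH. It was also high in the F-Hypox RNA that served as control for 2 injections. Pancreas and gut genes were high in M-Hypox+2GH on replicate 2 (median 2.93 over 9 genes). In pooled tissue, fewer cells of a type and less RNA per cell cannot be told apart.

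The genes of type I and type III collagen varied more between the arrays of a comparison than most genes did. The residual SD of Col1a1, the main chain of type I collagen, was 0.61, and those of Col3a1 (0.45) and Col1a2 (0.36) were also far above the median of 0.13 over all genes tested. Col5a3, a minor chain of type V collagen that takes part in setting fibril width, had 0.52. Type IV genes lay closer to that median, from 0.11 for Col4a6 to 0.26 for Col4a5. Col9a3 was the steadiest member, at 0.06, and it was above background in 11 of 44 channels. The median gap between both arrays of a comparison was 0.51 for Col1a1 and 0.14 over all genes.

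Col1a1, Col1a2 and Col3a1, the type I and type III chains, shared their sign on each array of the comparisons M-Hypox+GH30 over M-Hypox and M-Hypox over F-Hypox. In M-Hypox+GH30 over M-Hypox, Col1a1 was at 0.72 on replicate 1 and -0.82 on replicate 2, Col1a2 at 0.70 and -0.38, and Col3a1 at 0.65 and -0.58. In M-Hypox over F-Hypox the same genes were at 0.60 and -0.92, 0.29 and -0.45, and 0.26 and -0.70. The arrays of these comparisons thus pointed in opposite ways for each of these genes. In the first comparison Col5a3 and Col27a1 did not share this pattern: Col5a3 was at -1.38 and -0.86, and Col27a1 at -0.55 and -0.12. In the second, Col5a3 did turn sign, at 1.14 and -0.33, whereas Col27a1 was at 0.31 and 0.17. The fit gave Col1a1 -0.05 ± 0.39 in the first comparison and -0.16 ± 0.39 in the second.

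Among the sham and Hypox arrays, these gaps between replicates recurred across arrays with the same replicate number. The ratio of M-Hypox to F-Sham can be had by adding M-Sham/F-Sham and M-Hypox/M-Sham, or by adding F-Hypox/F-Sham and M-Hypox/F-Hypox. For Col1a1 those sums were 0.93 and 0.87 on the arrays of replicate 1, and -0.24 and -0.20 on those of replicate 2. For Col5a3 they were 2.19 and 2.12 on replicate 1, and 0.74 and 0.62 on replicate 2. Over the 10 fibrillar members the median gap between both sums was 0.09 within a replicate number and 0.47 when the numbers were crossed. Over all genes tested it was 0.11 and 0.16. A second loop runs from M-Hypox+GH30 to F-Hypox+GH30, directly or through both Hypox groups. Its median gap over the fibrillar members was 0.11 on replicate 1 and 0.67 on replicate 2, against 0.11 and 0.16 over all genes tested. The routes of this loop thus lay close for the fibrillar members on replicate 1 but not on replicate 2. On replicate 2 the F-Hypox channel held 3 mice in F-Hypox+GH30 over F-Hypox and 2 in M-Hypox over F-Hypox, so these pools differed. Beyond the numbers of mice, the labels do not say which arrays shared a pool. The p-values therefore measure only the spread between these arrays, which may be technical in part.

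Sham males and sham females were compared to ask how collagen expression differs between the sexes of intact mice. Higher in males were the fibrillar genes Col27a1, a collagen best known from cartilage, and Col11a2, a minor fibrillar chain. The basement membrane gene Col4a2 and Col7a1, which forms the anchoring fibrils under epithelia, were higher as well. Lower in males were Col14a1, which lies on the surface of fibrils, Col15a1, a multiplexin of the basement membrane zone, and the transmembrane collagen Col25a1. That is 4 members higher and 3 lower out of 33 (21.2%), where 8.77% of all genes tested were called, 5.03% higher and 3.74% lower. Type I and III genes did not pass the test.

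Col27a1 was at 1.24 and 0.80 (1.02 ± 0.14, 2.03-fold, adjusted p = 0.00037), the largest called sex difference of a member in sham mice. Both arrays lay well above 0. Col11a2 was at 0.45 and 0.41 (0.43 ± 0.10, adjusted p = 0.017) and Col4a2 at 0.41 and 0.29 (0.35 ± 0.08, adjusted p = 0.021). Col7a1 was at 0.27 on both arrays (adjusted p = 0.049). These differences amount to 1.21-fold to 1.34-fold. The second probe of Col11a2, above background in 33 of 44 channels, was at 0.13 and 0.01. Col15a1 was at -0.49 and -0.57 (-0.53 ± 0.09, adjusted p = 0.0029), and Col14a1 at -0.57 and -0.43 (-0.50 ± 0.09, adjusted p = 0.0043). The second probe of Col15a1, above background in 35 of 44 channels, was at -0.12 on both arrays. Col25a1 was at -0.38 and -0.17 (-0.28, adjusted p = 0.015), and its second probe was at 0.12 and 0.09. Col5a3 was at 1.36 and 0.87 (1.11 ± 0.33) with an adjusted p of 0.058. Col1a1 (0.25 and 0.01), Col1a2 (0.10 and -0.09), Col3a1 (-0.14 and -0.13) and Col4a1 (0.14 and 0.19) had adjusted p between 0.44 and 1.

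Without replicate 1, or without replicate 2, 2 of these members were called, and Col27a1 was called in both fits. Without replicate 1 Col14a1 was the other, and without replicate 2 it was Col25a1. Muscle genes moved with this comparison, with a median of 1.73 on replicate 1 and 2.59 on replicate 2, and their part in the result was not tested. On the first array of M-Hypox+GH30 over M-Hypox, where the muscle median was 2.90, Col27a1 was at -0.55 and Col11a2 at 0.03. In M-Hypox over M-Sham, with muscle medians of -1.95 and -2.72, they were at -0.79 and -0.44, and at -0.41 and -0.73. In F-Hypox+2GH over F-Hypox, with muscle medians of -2.94 and -2.85, they were at -0.45 and -0.49, and at -0.24 and -0.49. On replicate 1 of M-Hypox+GH90 over M-Hypox (muscle 1.32) Col27a1 was at -0.45 and Col11a2 at 0.13. On replicate 2 of M-Hypox+2GH over M-Hypox (muscle 2.68) they were at -0.60 and -0.05. On replicate 1 of M-Hypox+GH30 over F-Hypox+GH30 (muscle 2.83) they were at 0.19 and 0.01. Of 12 stellate cell markers tested, 2 were lower in sham males, with medians of -0.24 and -0.31. Of 6 Kupffer cell markers, 2 were lower, with medians of -0.49 and -0.84, and the part of both lists was not tested.

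**Figure D2:**
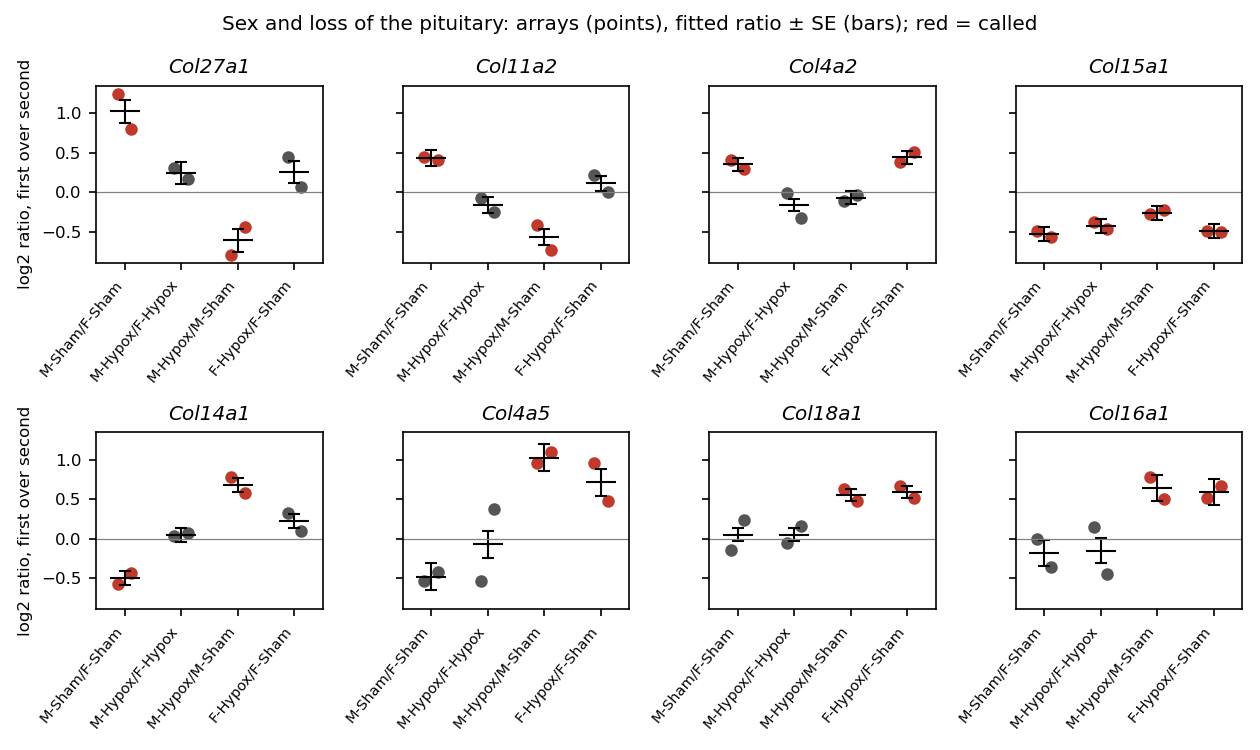
Log2 ratios of 8 collagen genes in the 4 comparisons of sham and Hypox mice. Points are the 2 arrays (red where the gene was called, grey otherwise), and the bar is the fitted ratio ± SE. Col27a1 and Col11a2 are above 0 in sham males over sham females and below 0 in M-Hypox over M-Sham, and Col18a1 and Col16a1 are above 0 after pituitary loss in both sexes.

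Loss of the pituitary was assessed in each sex as Hypox over sham. In males 6 members rose and 4 fell (30.3% of 33, where 37.4% of all genes tested were called, 18.8% higher and 18.6% lower). In females 7 rose and 2 fell (27.3%, against 31.1% of all genes, 14.6% higher and 16.5% lower). Genes that rose in both sexes were Col18a1, the multiplexin that hepatocytes express and that holds endostatin, the basement membrane gene Col4a5, the fibril-associated Col16a1 and the transmembrane Col23a1. Col15a1 fell in both. Type I and III genes did not pass the test in either sex.

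Col4a5 had the largest rise in males, at 0.95 and 1.09 (1.02 ± 0.17, 2.02-fold, adjusted p = 0.00041). In females it was at 0.95 and 0.47 (0.71 ± 0.17, adjusted p = 0.0060). Col18a1 was at 0.63 and 0.48 in males (0.55 ± 0.08, adjusted p = 0.00021) and at 0.66 and 0.52 in females (0.59 ± 0.08, adjusted p = 0.00020). All 4 arrays of each gene lay above 0. The second probe of Col18a1 also rose, with 0.48 and 0.60 in males and 0.29 and 0.43 in females. Col16a1 was at 0.78 and 0.50 in males (adjusted p = 0.0069) and at 0.52 and 0.67 in females (adjusted p = 0.013). Col23a1 was at 0.57 and 0.49 in males and at 0.52 and 0.19 in females. Second probes of Col16a1 and Col23a1 were above background in 0 of 44 channels, and their male ratios were between -0.18 and 0.02. Col15a1 was at -0.28 and -0.23 in males (adjusted p = 0.044) and at -0.49 and -0.50 in females (adjusted p = 0.0016). Its second probe was at -0.05 and -0.11 in males and at -0.07 and -0.35 in females. With the mean over its probes limma gave -0.17 in males (adjusted p = 0.1).

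Further members were called in males. Col14a1 rose, at 0.78 and 0.58 (0.68 ± 0.09, 1.60-fold, adjusted p = 0.00011), as did the transmembrane Col13a1, at 0.36 and 0.71 (adjusted p = 0.015). Col27a1 fell, at -0.79 and -0.44 (-0.61 ± 0.14, adjusted p = 0.0035), and so did Col11a2, at -0.41 and -0.73 (-0.57 ± 0.10, adjusted p = 0.00066), and Col7a1, at -0.23 and -0.33 (adjusted p = 0.013). The dim second probe of Col14a1 was at -0.25 and 0.00. The second probe of Col13a1, above background in 41 of 44 channels, was at -0.05 and 0.20. That of Col11a2, above background in 33 of 44, was at -0.00 and -0.10. Several of these genes differed the other way between sham males and sham females. Both comparisons share the M-Sham group, so their signs are not independent.

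In females Col4a2 rose, at 0.38 and 0.51 (0.44 ± 0.08, 1.36-fold, adjusted p = 0.0017), and its second probe was at 0.27 and 0.47. Its partner Col4a1 was at 0.15 and 0.09 (adjusted p = 0.45). The difference between these genes was not tested. Col5a3 rose, at 0.98 and 0.95 (0.96 ± 0.33, adjusted p = 0.043), with a dim second probe at 0.07 and 0.10. Col6a1, a chain of the beaded filaments of type VI collagen, was at 0.34 and 0.64 (adjusted p = 0.038). Col9a2 fell slightly, at -0.36 and -0.14 (adjusted p = 0.012). Col6a6 was at -0.09 on replicate 1 and 1.70 on replicate 2, so it was not called despite an adjusted p of 0.028, and it was above background only in F-Sham and F-Hypox channels.

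In males 7 members were called without replicate 1 and 7 without replicate 2, and Col18a1, Col14a1, Col4a5, Col11a2 and Col23a1 were called in both fits. In females the calls of Col18a1 and Col4a2 stood without either array, and every other female call was lost in at least 1 of these fits. Without replicate 1 Col4a5 was at 0.53 and Col23a1 at 0.19, and without replicate 2 Col15a1 was at -0.46. Muscle genes were low in Hypox males (medians -1.95 and -2.72) and had medians of 0.07 and 0.02 in Hypox females. Of 12 stellate cell markers, 3 rose and 1 fell in Hypox males, and 1 rose and 4 fell in females. Of 11 endothelial markers, 5 rose and 1 fell in males, and 3 rose and 2 fell in females. Of 8 lymphocyte markers, 7 rose in males and 4 in females. Whether these cell types have a part in the collagen values was not tested.

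The effect of pituitary loss differed between the sexes for 3 members, by a test of the difference between the male and the female ratio. The male effect was below the female one for Col27a1 (-0.87 ± 0.19, adjusted p = 0.020), Col11a2 (-0.68 ± 0.14, adjusted p = 0.014) and Col4a2 (-0.51 ± 0.12, adjusted p = 0.025). Col27a1 and Col11a2 fell in males and were at 0.45 and 0.06, and at 0.22 and 0.00, in females. The second probe of Col11a2, above background in 33 of 44 channels, was at -0.00 and -0.10 in males and at -0.15 and -0.17 in females. With the mean over a gene's probes the limma difference for Col11a2 was -0.28 (adjusted p = 0.087). Col4a2 rose in females and was at -0.11 and -0.03 in males. Among all genes tested, 6.74% had such a difference, and 3.52% had it in this direction. Leaving out 1 of the 4 arrays gave between 0 and 2 calls. Without replicate 2 of the female comparison Col27a1 and Col11a2 were called, and without replicate 1 of the male comparison Col11a2 was. Without replicate 2 of the male comparison there were 0, and without replicate 1 of the female comparison Col6a6 alone was called. Col14a1 had a difference of 0.46 ± 0.13 with an adjusted p of 0.056. Col18a1 differed by -0.04 ± 0.12 (adjusted p = 0.89).

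After loss of the pituitary, 1 of 33 members (3.03%) differed between males and females, where 1.63% of all genes tested were called. It was Col15a1, which was lower in M-Hypox at -0.38 and -0.47 (-0.43 ± 0.09, 1.34-fold, adjusted p = 0.042), and the call was lost without either array. Col27a1 was at 0.31 and 0.17 there, Col11a2 at -0.07 and -0.25, Col14a1 at 0.03 and 0.07, and Col4a2 at -0.01 and -0.32. The second probe of Col15a1, above background in 35 of 44 channels, was at -0.15 and -0.06 there. With the mean over its probes limma gave -0.27 (adjusted p = 0.1). By its brightest probe Col15a1 was the member whose arrays never disagreed in sign: it was below 0 on 22 of 22 arrays, from -0.62 to nearly 0. Its second probe was at 0.11 on replicate 2 of M-Hypox+GH30 over F-Hypox+GH30. By the brightest probe, the sum for Col15a1 from F-Sham to M-Hypox was -0.79 through the male groups and -0.92 through the female groups. Across the members, both sums differed by a median of 0.09, against 0.08 for all genes.

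A single GH injection was followed for 30 min and for 90 min in Hypox mice. limma called 0 of 33 members at either time in either sex. At 30 min 2.50% of all genes tested were called in males and 0.0191% in females. At 90 min it was 4.98% and 3.17%. Members with an unadjusted p under 0.05 numbered 5 in males and 4 in females at 30 min (18.3% and 7.55% of all genes), and 2 in each sex at 90 min (18.7% and 14.8%). In a model with the 10 groups as terms, 1 member was called in males at 30 min (Col7a1), 1 in females at 30 min (Col4a3) and 1 in males at 90 min (Col25a1), all lower. With each array centred on its median in place of loess, 2 were called in females at 90 min (Col6a2 and Col8a2, both lower).

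At 30 min Col5a3 had the largest value in males, at -1.38 and -0.86 (-1.12 ± 0.33, adjusted p = 0.091). Col7a1 was at -0.41 and -0.20 (adjusted p = 0.056), and Col8a1, which forms short-chain networks in vessel walls, at 0.49 and 0.47 (adjusted p = 0.11). In females at 30 min Col4a3, a chain of a type IV network best known from kidney, was at -0.40 and -0.47 (-0.43 ± 0.09, adjusted p = 0.22). Col27a1 was at -0.42 and -0.40 in the same females and at -0.55 and -0.12 in males. At 90 min Col1a1 was at 0.76 and 0.44 in males and at -0.82 and -0.05 in females, and Col3a1 at 0.39 and 0.38 against -0.54 and -0.07. The differences between the sexes at 90 min were 1.03 ± 0.55 for Col1a1 (adjusted p = 0.56) and 0.69 ± 0.40 for Col3a1 (adjusted p = 0.60). Among the members, 0 of 33 differed between the sexes in the response at 30 min or at 90 min (0.00764% of all genes tested at each time), and by limma 3 and 5 had an unadjusted p under 0.05. Muscle genes were high on replicate 1 of the male comparisons (2.90 at 30 min and 1.32 at 90 min).

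M-Hypox+GH30 was also compared with F-Hypox+GH30 directly. limma called 0 of 33 members and 0.504% of all genes tested, and 2 members had an unadjusted p under 0.05. These were Col8a2, at 0.35 and 0.21 (adjusted p = 0.27), and the hemidesmosome collagen Col17a1, at 0.13 and 0.51 (adjusted p = 0.36). Col1a1 was at 0.85 and 0.34, with the muscle median at 2.83 on replicate 1 and -0.01 on replicate 2.

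After 2 GH injections some members were called lower in each sex, in males at close to the share over all genes tested. In females 5 of 33 fell (15.2%) and 0 rose, where 4.03% of all genes tested were called lower and 8.43% either way. In males 3 fell (9.09%) and 0 rose, where 8.70% of all genes were called lower and 19.3% either way. The female falls were Col8a1, Col1a2, Col6a1, Col7a1 and Col11a2, and the male falls were Col5a3, Col27a1 and Col15a1. The male members were not called in females, where Col27a1 was at -0.45 and -0.49 (adjusted p = 0.053), Col5a3 at -0.32 and -1.03 and Col15a1 at 0.00 and -0.29.

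In females Col8a1 was at -0.73 and -1.34 (-1.04 ± 0.15, 2.05-fold lower, adjusted p = 0.0025). Col1a2, the second chain of type I collagen, was at -0.75 and -0.91 (-0.83 ± 0.23, 1.78-fold lower, adjusted p = 0.042). Col6a1 was at -0.73 and -0.48 (adjusted p = 0.040), Col7a1 at -0.42 on both arrays (adjusted p = 0.0078) and Col11a2 at -0.24 and -0.49 (adjusted p = 0.041). The second probe of Col11a2 was at 0.08 and -0.01. Col1a1 was at -1.05 and -1.24 (-1.14 ± 0.39, adjusted p = 0.095), and Col3a1 at -0.82 and -0.93 (-0.88 ± 0.28, adjusted p = 0.079). Both arrays of each gene lay below 0, but the SE of these genes is large. The second probe of Col1a1 was at -0.56 and -0.48. In all, 26 of 33 members had a negative ratio in females, where 49.7% of all genes tested did, and 13 had an unadjusted p under 0.05, where 22.2% of all genes did.

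Muscle genes moved with the female comparison more than any collagen did, with medians of -2.94 and -2.85, and 15 of 17 muscle genes tested were called lower. Adipocyte markers had medians of -0.40 and -0.41, and 2 of 8 portal fibroblast markers fell (-0.19 and -0.48). Stellate cell markers had medians of -0.02 and -0.09, with 1 of 12 lower, and the stellate cell enzyme Lrat was at -0.15 and -0.63. The part of these lists in the collagen falls was not tested. The muscle signal lay in the F-Hypox control RNA of both arrays, so that it cannot be told apart from the treatment. The labels do not say whether these arrays shared a control pool. Values on the other arrays with muscle medians beyond 1 are given as a description. On replicate 1 of M-Hypox+GH30 over M-Hypox, with a muscle median of 2.90, Col1a1 was at 0.72 and Col1a2 at 0.70. With a muscle median of 2.68 on replicate 2 of M-Hypox+2GH over M-Hypox, they were at 0.35 and -0.24. With a muscle median of 0.05 on replicate 1 of M-Hypox over F-Hypox, they were at 0.60 and 0.29. On the M-Sham arrays, with muscle medians of 1.73 and 2.59 over F-Sham, Col1a1 was at 0.25 and 0.01 and Col1a2 at 0.10 and -0.09. In M-Hypox over M-Sham (muscle -1.95 and -2.72) Col1a1 was at 0.68 and -0.24 and Col1a2 at 0.24 and -0.29. On replicate 1 of M-Hypox+GH90 over M-Hypox (muscle 1.32) they were at 0.76 and 0.26. On replicate 1 of M-Hypox+GH30 over F-Hypox+GH30 (muscle 2.83) they were at 0.85 and 0.52. Without replicate 1 of the female comparison 1 member was called (Col8a1), and without replicate 2 there were 0. Without the arrays of sham mice 3 were called.

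In males Col5a3 was at -1.53 and -0.74 (-1.13 ± 0.33, 2.19-fold lower, adjusted p = 0.030), and its dim second probe at -0.11 and 0.10. Col27a1 was at -0.87 and -0.60 (-0.74 ± 0.14, 1.67-fold lower, adjusted p = 0.0023). Col15a1 was at -0.62 and -0.29 (-0.46 ± 0.09, adjusted p = 0.0038), and its second probe at -0.26 and -0.15. Col1a1 (0.19 and 0.35), Col1a2 (0.06 and -0.24) and Col3a1 (-0.09 and 0.17) had adjusted p between 0.73 and 0.96. Muscle genes were at -0.03 on replicate 1 and 2.68 on replicate 2, and the falls of these genes were larger on replicate 1. Pancreas and gut genes had medians of 0.48 and 2.93, with 5 of 9 called higher. The part of both lists in the result was not tested. Without replicate 1, 0 of 33 members were called. Without replicate 2, 3 were called, and they were Col27a1, Col15a1 and, in place of Col5a3, Col18a1.

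Responses to 2 injections differed between the sexes for 1 member, Col7a1 (0.54 ± 0.11, adjusted p = 0.034), which was at 0.05 and 0.20 in males and fell in females. Among all genes tested 1.97% differed. Leaving out any 1 of the 4 arrays ended the call of Col7a1. Without replicate 1 of the female comparison Col8a1 was called in its place (1.34), and the other fits had 0 calls. Col8a1 differed by 0.91 ± 0.21 (adjusted p = 0.051), Col1a1 by 1.41 ± 0.55 (adjusted p = 0.20) and Col1a2 by 0.74 ± 0.32 (adjusted p = 0.26). In all, 13 of 33 members had an unadjusted p under 0.05 for this difference, where 17.3% of all genes tested did.

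**Figure D3:**
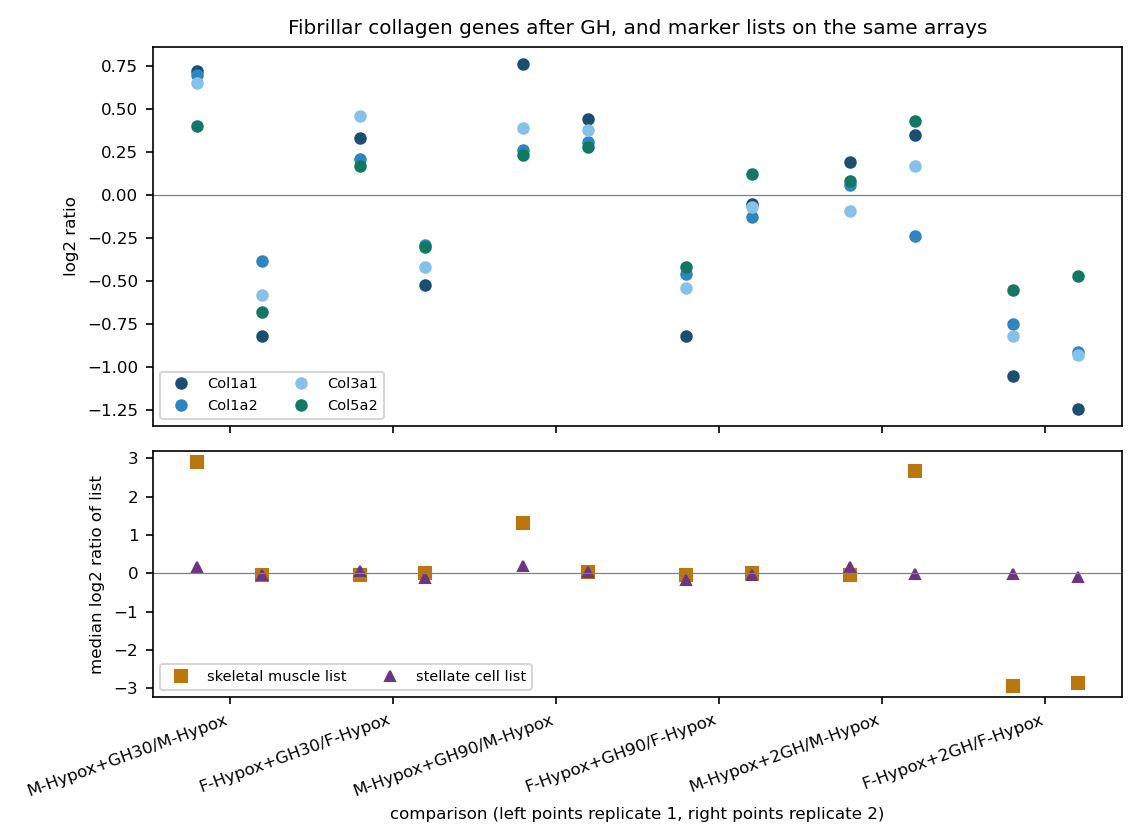
Upper panel: log2 ratio of 4 fibrillar genes on each array of the 6 comparisons of GH-treated with Hypox mice (left points replicate 1, right points replicate 2). Lower panel: median log2 ratio of the skeletal muscle and stellate cell lists on the same arrays, with muscle at -2.94 and -2.85 in F-Hypox+2GH, where Col1a1, Col1a2 and Col3a1 have their lowest values of the panel.

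Medians over each class are given as a description. The fibrillar median was lowest in F-Hypox+2GH over F-Hypox, at -0.50 on replicate 1 and -0.57 on replicate 2. The basement membrane median was -0.07 and -0.01 there, the median of the other types -0.16 and -0.14, and the median over all genes tested 0.00 on both arrays. In M-Hypox+GH90 over M-Hypox the fibrillar median was 0.21 and 0.24, with -0.06 and -0.06 for basement membrane genes. In the remaining GH comparisons and in M-Hypox over F-Hypox, fibrillar medians differed in sign or by over 0.3 between the arrays, except after 2 injections in males (-0.04 on both). Basement membrane medians lay between -0.24 and 0.15 on every array, and those of the other types between -0.16 and 0.14. These medians carry no test, and the sign of several turned with the setting. The fitted fibrillar median went from -0.19 to 0.19 with median centring in F-Hypox+GH90 over F-Hypox, and from 0.11 to -0.22 without replicate 1 in M-Hypox over M-Sham.

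**Figure D4:**
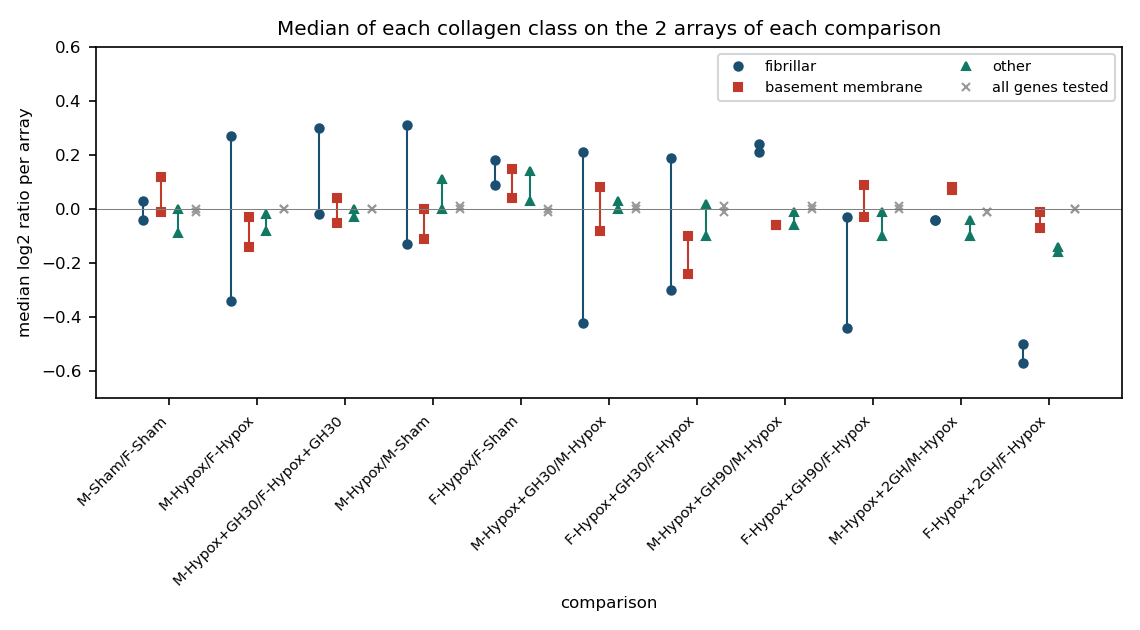
Median log2 ratio of the fibrillar (10 genes), basement membrane (6) and other (17) collagens and of all genes tested, with 1 point per array and a line joining both arrays of a comparison. The fibrillar medians span from above 0 to below 0 in several comparisons, and both are near -0.5 in F-Hypox+2GH over F-Hypox.

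Calls were spread over the classes. In M-Hypox over M-Sham 2 of 10 fibrillar genes (both lower), 1 of 6 basement membrane genes (higher) and 7 of 17 others (5 higher, 2 lower) were called. In F-Hypox over F-Sham the counts were 1 of 10, 2 of 6 and 6 of 17. In F-Hypox+2GH over F-Hypox they were 2 of 10, 0 of 6 and 3 of 17. Among all genes tested, 37.4%, 31.1% and 8.43% were called in these comparisons, in that order. Col4a1, Col4a3, Col4a4 and Col4a6 were called in no comparison, and neither were Col1a1, Col2a1, Col3a1, Col5a1, Col5a2 or Col11a1.

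Second probes bear on how far a member's value depends on the probe chosen, which was the brightest. Both probes of Col4a2 and of Col18a1 gave like ratios, and in M-Sham over F-Sham the second probe of Col4a2 was at 0.40 and 0.29. The second probe of Col4a1 was at 0.38 and 0.29 there, above the brightest one. The second probe of Col1a1 was at -0.56 and -0.48 where the brightest one was lowest, but at 0.44 against 0.35 on replicate 2 of M-Hypox+2GH over M-Hypox and at 0.03 against -0.24 on replicate 2 of M-Hypox over M-Sham. Those of Col3a1 and Col5a3, above background in 9 and 16 of 44 channels, stayed near 0 where the brightest probe moved. The brightest Col2a1 probe was at -0.71 and -0.65 in F-Hypox+2GH over F-Hypox (adjusted p = 0.12), and a second probe, above background in all 44 channels, was at 0.13 and 0.02. Values of Col2a1, the main collagen of cartilage, are therefore uncertain.

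**Figure D5:**
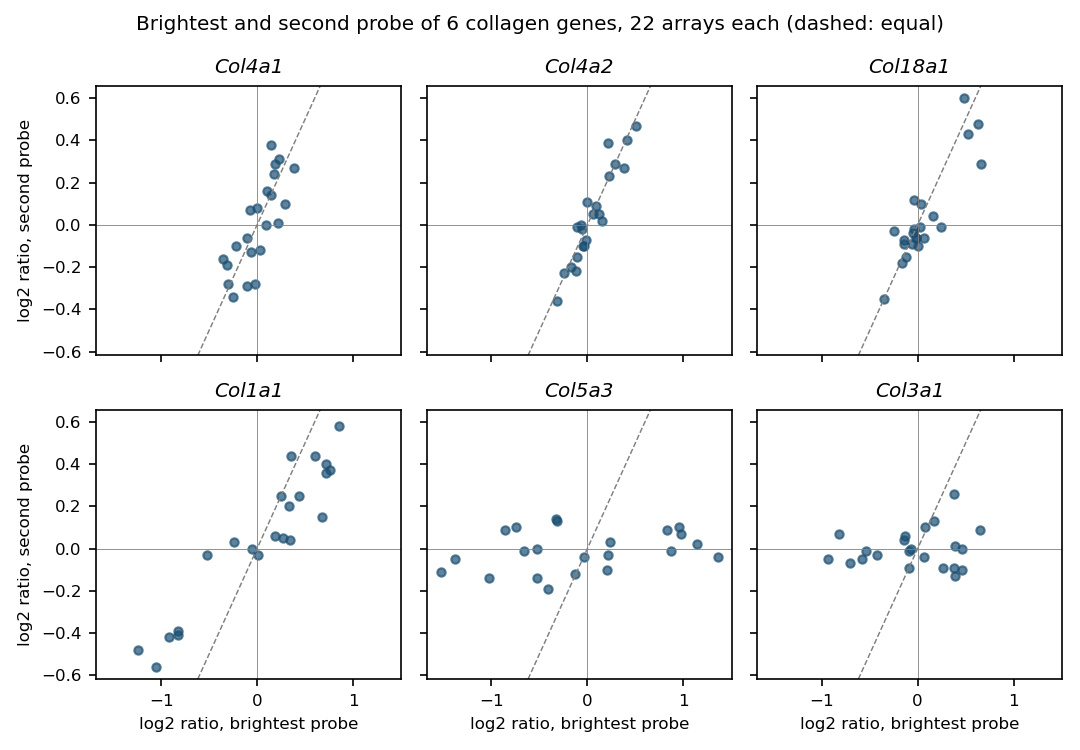
Log2 ratio of the second probe against that of the brightest probe on 22 arrays, for 6 collagen genes, with the dashed line marking equal ratios and the vertical axis drawn on a wider scale than the horizontal one. Points of Col4a2 and Col18a1 lie near the line, those of Col1a1 lie along a flatter slope, and the second probes of Col5a3 and Col3a1 stay near 0.

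Genes that make, bind and remodel collagen were read from lists of pathway genes. Counts after pituitary loss stand against 18.8% of all genes tested called higher and 18.6% lower in males, and 14.6% and 16.5% in females. The male comparison also holds the muscle medians of -1.95 and -2.72, whose part in the pathway values was not tested. Collagen chains are hydroxylated and folded in the endoplasmic reticulum before they leave the cell, and of 19 such genes tested 7 fell and 2 rose in Hypox males. In females 7 fell and 5 rose. The prolyl hydroxylase subunit P4ha2 was at -1.87 and -1.33 in males (-1.60 ± 0.18, adjusted p = 2.1e-05) and at -0.81 and -0.95 in females (-0.88 ± 0.18, adjusted p = 0.0025). P4ha1 was at -1.29 and -1.28 in males and was higher in sham males than in sham females (0.89 and 0.74). The collagen chaperone Serpinh1 fell in males (-1.03 and -1.73, adjusted p = 0.00043). The lysyl hydroxylase Plod2 rose in females (0.50 and 1.07), as did the chaperone Fkbp10 (0.31 and 0.65).

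Cleavage of procollagen ends and cross-linking had 9 genes tested. The procollagen C-proteinase Bmp1 fell in both sexes after pituitary loss (-1.03 and -0.94 in males, -1.26 and -0.93 in females). So did the N-proteinase Adamts2 (-0.59 and -0.81, -0.60 and -0.65). The cross-linking enzyme Lox rose in females (0.63 and 0.72, adjusted p = 0.034). Of 7 collagen receptors tested, 3 rose in males and 4 in females with 0 falling in either. They included the kinase Ddr1 (1.08 and 0.59 in males, 0.68 and 0.48 in females) and the integrin chain Itgb1 (0.47 and 0.18, 0.46 and 0.39). Of 15 genes of collagen breakdown and its inhibitors, 1 rose and 1 fell in Hypox males, and 0 rose and 2 fell in Hypox females. The membrane protease Mmp14 was lower in sham males than in sham females (-0.93 and -1.23) and rose in Hypox males (1.19 and 1.36). Mmp19 fell in males (-0.68 and -0.38) and in females (-0.41 and -0.56), and Timp2 fell in females (-0.33 and -0.58).

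Of 12 basement membrane partners tested, 3 rose in males and 4 in females, and 0 fell, where 18.8% and 14.6% of all genes were called higher. Nidogen 1 (Nid1), which links laminin to type IV collagen, was at 1.15 and 0.77 in males (adjusted p = 0.00012) and at 1.24 and 1.10 in females (adjusted p = 4.6e-05). Of 18 partners of fibrils, 5 rose and 1 fell in males, and 6 rose and 2 fell in females. Fibulin 2 (Fbln2) was at 0.75 and 0.72 in males and at 1.07 and 1.22 in females, while lumican (Lum), which binds fibrils, fell in both (-0.44 and -0.75, -1.37 and -0.62). Of 14 genes of TGF-β signalling, which drives collagen synthesis, 3 rose in males, and 5 rose and 1 fell in females. The receptor Tgfbr2 was at 0.86 and 1.16 in males and at 0.93 and 0.84 in females.

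After 2 injections in females, 3 of 18 fibril partners fell and 0 rose, where 4.03% of all genes were called lower. Also called lower were P4ha2 (-1.09 and -0.75, adjusted p = 0.0098) and the matrix protease Mmp2 (-0.78 and -0.53, adjusted p = 0.024). The partners were fibulin 1 (Fbln1, -0.95 on both arrays), Lum (-1.01 and -0.78) and Fbln2 (-0.50 and -0.67). Muscle genes moved with these values too, and their part was not tested. In males after 2 injections, where 19.3% of all genes were called, 3 of 19 folding genes rose and 1 fell. Pancreas and gut genes (medians 0.48 and 2.93) and, on replicate 2, muscle genes (2.68) were high there too, and their part was not tested. Among the folding genes called were the prolyl hydroxylase P3h1 (0.38 and 0.52, adjusted p = 0.00014) and Plod3 (0.33 and 0.43), which rose, and the galactosyltransferase Colgalt2, which fell (-0.81 and -1.03). The TGF-β receptor Tgfbr1 rose after GH in males at 90 min (0.75 and 0.43, adjusted p = 0.0039) and after 2 injections (0.41 and 0.29), and in females at 90 min (0.50 and 0.59, adjusted p = 0.0095).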

How the data were processed

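The scanner output of 22 Agilent 2-colour arrays was used, with the labels giving the group of each channel. The deposited intensities (mean signal and median background of each spot, per the file headers) were not normalised between channels. The deposited log10 ratio, per the file headers the scanner software's own ratio of red to green after background subtraction and dye correction, served as an alternative. The deposited value table holds, per the labels, the authors' normalised ratios, and from its values these are log2 ratios of first over second group: each column equals the scanner software's ratio of 1 array within 0.0050, but 16 of 22 match the other replicate of their comparison, so the table was used only to check direction (column medians -0.02 to 0). Background was corrected by normexp (offset 50), dyes were balanced by loess within each array, and log2 ratios were turned to first over second group by the labelled dyes (Alexa 647 red, Alexa 555 green).

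Control and outlier spots (160 to 288 an array) were left out, and each gene was represented by its brightest probe. Of 41174 probes, 22072 were named by accession through the RefSeq table and 19102 keep the name in the files. limma 3.58.1 in R 4.3.3 fitted 11 comparisons and a dye term to 26191 genes (10 residual df), with Benjamini-Hochberg adjustment within each comparison. The steps were tested on simulated data. Genes were named if called, if they mark types I, III, IV or V, or by the size of their change within a pathway list (at most 4 a list and comparison). A gene of a pathway list that the rule would name is not reported here. The members and all gene lists were chosen with earlier results of these data known.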

Additional observations from a re-analysis of the deposited data

Results flagged for a closer look

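The effect of pituitary loss (Hypox over sham) differed between males and females for 3 collagen genes, by limma's test of the male minus the female log2 ratio. The difference was -0.87 for Col27a1, -0.68 for Col11a2 and -0.51 for Col4a2. With the mean over a gene's probes it was -0.28 for Col11a2 (adjusted p = 0.087). The response to 2 GH injections differed between the sexes for Col7a1, by 0.54. Skeletal muscle genes were high in M-Sham pools and in the F-Hypox RNA compared with F-Hypox+2GH, and their part in these differences was not tested.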

How the results depend on the processing

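Of 35 calls in comparisons, 6 stood under every alternative run: Col27a1 in M-Sham over F-Sham, and Col18a1, Col14a1, Col4a5, Col11a2 and Col23a1 in M-Hypox over M-Sham. A further view is by array: 8 stood without either array and 14 were lost without each, and 0 were reversed under the alternatives run. Of 39 calls, sex differences included, median centring kept 8, the scanner software's log ratio 30, no dye term 32, the mean over probes 33 and a replicate block 37. With the arrays of each comparison fitted alone, 19 of 35 calls were kept and 16 lost. The replicate number was not taken to pair the arrays throughout: over 55 pairs of comparisons the correlation of same-numbered deviations ran from -0.36 to 0.87, with 20 pairs over 0.1 and 21 under -0.1, although the sham and Hypox arrays added up within a number. With 2 arrays a comparison, the SE rests on the spread pooled over all comparisons, and probes near background (Col6a6, Col9a1, Col9a3) carry little signal. The cause was not tested for any value below. The counts below cover the members only, and no share over all genes tested stands beside them. They therefore do not show whether collagen genes depend on a setting more or less than other genes do.

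With median centring the members called numbered 1 in M-Sham over F-Sham, 5 in M-Hypox over M-Sham, 1 in F-Hypox over F-Sham, 0 in M-Hypox over F-Hypox, 2 in F-Hypox+GH90 over F-Hypox, 0 in M-Hypox+2GH over M-Hypox, 1 in F-Hypox+2GH over F-Hypox, 0 in sex difference of Hypox over sham and 0 in sex difference after 2 injections. With no dye term the members called numbered 4 in M-Sham over F-Sham and 0 in M-Hypox over F-Hypox. With the 10 groups as terms the members called numbered 11 in M-Sham over F-Sham, 1 in M-Hypox+GH30 over M-Hypox, 1 in F-Hypox+GH30 over F-Hypox, 1 in M-Hypox+GH90 over M-Hypox, 5 in M-Hypox+2GH over M-Hypox, 8 in F-Hypox+2GH over F-Hypox, 8 in sex difference of Hypox over sham, 1 in sex difference at 30 min and 4 in sex difference after 2 injections. With the arrays of each comparison fitted alone the members called numbered 2 in M-Sham over F-Sham, 5 in F-Hypox over F-Sham, 0 in M-Hypox over F-Hypox, 1 in M-Hypox+2GH over M-Hypox and 9 in F-Hypox+2GH over F-Hypox. With the scanner software's log ratio the members called numbered 0 in M-Hypox over F-Hypox and 0 in sex difference after 2 injections. With the mean over a gene's probes the members called numbered 0 in M-Hypox over F-Hypox. Without the arrays of sham mice, chosen after seeing the data, the members called numbered 0 in M-Hypox over F-Hypox, 3 in F-Hypox+2GH over F-Hypox and 0 in sex difference after 2 injections. With the slide as a random block the members called numbered 5 in M-Hypox+2GH over M-Hypox and 2 in sex difference after 2 injections. With a replicate block the members called numbered 5 in M-Hypox+2GH over M-Hypox. With a stricter filter on dim probes the members called numbered 2 in sex difference after 2 injections.

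With median centring the fibrillar median was 0.27 in M-Hypox+GH90 over M-Hypox, -0.04 in M-Hypox+2GH over M-Hypox, 0.24 in F-Hypox over F-Sham and 0.19 in F-Hypox+GH90 over F-Hypox. With median centring the basement membrane median was -0.06 in M-Hypox+GH90 over M-Hypox, 0.05 in M-Hypox+2GH over M-Hypox, 0.12 in F-Hypox over F-Sham and 0.36 in F-Hypox+GH90 over F-Hypox. With median centring the other median was -0.03 in M-Hypox+GH30 over M-Hypox, -0.08 in M-Hypox+2GH over M-Hypox, -0.19 in F-Hypox+GH90 over F-Hypox and -0.03 in M-Hypox+GH30 over F-Hypox+GH30. With the mean over a gene's probes the fibrillar median was 0.11 in M-Hypox+GH90 over M-Hypox, -0.02 in M-Hypox+2GH over M-Hypox, 0.07 in F-Hypox over F-Sham and -0.39 in F-Hypox+2GH over F-Hypox. With the mean over a gene's probes the basement membrane median was -0.03 in M-Hypox+GH90 over M-Hypox and 0.08 in M-Hypox+2GH over M-Hypox. With the mean over a gene's probes the other median was -0.11 in F-Hypox+2GH over F-Hypox. With the scanner software's log ratio the fibrillar median was -0.00 in M-Hypox+2GH over M-Hypox, 0.21 in F-Hypox over F-Sham and -0.77 in F-Hypox+2GH over F-Hypox. With the scanner software's log ratio the basement membrane median was -0.16 in M-Hypox+GH90 over M-Hypox, -0.12 in F-Hypox+2GH over F-Hypox and -0.03 in M-Hypox+GH30 over F-Hypox+GH30. With the scanner software's log ratio the other median was -0.22 in M-Sham over F-Sham, 0.31 in M-Hypox over M-Sham, -0.10 in M-Hypox+GH30 over M-Hypox, -0.13 in M-Hypox+GH90 over M-Hypox, 0.20 in F-Hypox over F-Sham, -0.27 in F-Hypox+GH90 over F-Hypox, -0.18 in F-Hypox+2GH over F-Hypox, -0.17 in M-Hypox over F-Hypox and -0.06 in M-Hypox+GH30 over F-Hypox+GH30. With multiplexins counted as basement membrane the basement membrane median was -0.09 in M-Hypox+GH90 over M-Hypox and -0.02 in M-Hypox+2GH over M-Hypox. With the 10 groups as terms the other median was -0.02 in M-Hypox+GH30 over M-Hypox. With a stricter filter on dim probes the other median was 0.03 in M-Hypox+GH90 over M-Hypox, -0.13 in M-Hypox+2GH over M-Hypox, -0.22 in F-Hypox+2GH over F-Hypox and -0.03 in M-Hypox+GH30 over F-Hypox+GH30. With no filter on dim probes the other median was -0.10 in F-Hypox+2GH over F-Hypox and -0.02 in M-Hypox+GH30 over F-Hypox+GH30.

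With either array left out, members called ranged from 2 to 2 in M-Sham over F-Sham, 4 to 6 in F-Hypox over F-Sham, 0 to 0 in M-Hypox over F-Hypox, 0 to 3 in M-Hypox+2GH over M-Hypox, 0 to 1 in F-Hypox+2GH over F-Hypox, 0 to 2 in sex difference of Hypox over sham and 0 to 1 in sex difference after 2 injections. Some of these counts take in members that the fit to all 22 arrays did not call. With either array left out, the fibrillar median ranged from -0.22 to 0.33 in M-Hypox over M-Sham, -0.05 to -0.04 in M-Hypox+2GH over M-Hypox and -0.66 to -0.44 in F-Hypox+2GH over F-Hypox. With either array left out, the basement membrane median ranged from -0.10 to 0.11 in M-Hypox+GH30 over M-Hypox, -0.06 to -0.05 in M-Hypox+GH90 over M-Hypox, 0.09 to 0.11 in M-Hypox+2GH over M-Hypox, 0.07 to 0.13 in F-Hypox over F-Sham, -0.27 to -0.05 in F-Hypox+GH30 over F-Hypox and -0.06 to 0.03 in M-Hypox+GH30 over F-Hypox+GH30. With either array left out, the other median ranged from 0.01 to 0.14 in M-Hypox over M-Sham, -0.03 to 0.03 in M-Hypox+GH30 over M-Hypox, -0.04 to 0.01 in M-Hypox+GH90 over M-Hypox, 0.04 to 0.18 in F-Hypox over F-Sham, -0.10 to 0.03 in F-Hypox+GH30 over F-Hypox, -0.19 to -0.13 in F-Hypox+2GH over F-Hypox and -0.03 to -0.01 in M-Hypox+GH30 over F-Hypox+GH30.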
